A study of Mus musculus with 4 samples.

Results

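9 genes that regulate or mark the blood and endothelial lineages were followed through 3 stages of mouse gastrulation: *Etv2*, *Tal1*, *Lmo2*, *Fli1*, *Runx1*, *Ikzf1*, *Cdh5*, *Pecam1* and *Cited4*. They were chosen by name and are 9 of the 19616 genes listed in at least 1 of the count tables. All 9 are listed at every stage. The embryos had the genotype TnEGP-CreERT2/+; R26Rtdtomato/R26Rtdtomato at each stage, so every group carried a CreERT2 expressed from 1 allele of *T* and a tdTomato reporter on both alleles of its locus. The reporter is switched on by tamoxifen only in cells that express *T*, and in their progeny. All dams were gavaged with tamoxifen at 0.08 mg/bw, and no untreated group was part of the comparison. Mid to late streak embryos (MS-LS) were dissected at E6+21h after a dose at E6+5h, no bud to early bud embryos (OB-EB) at E7+3h after a dose at E6+21h, and early headfold embryos (EHF) at E7+14h after a dose at E7+7h. Embryos of a stage were pooled into 1 library of a droplet assay of transcript 3′ ends, in which a random tag (the unique molecular identifier, UMI) lets copies of 1 captured molecule be counted once.

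The libraries hold 3635 cells (MS-LS), 3994 cells (OB-EB) and 3494 cells (EHF), with 17966956, 12181436 and 20376539 UMIs in total and medians of 4251, 2620.5 and 5584 UMIs per cell. The pairs of libraries share 12 to 18 cell barcodes. With 1 library per stage there is no replicate, so no test was made between stages or between groups of cells. Levels are given as UMIs per 1000000 UMIs of a group of cells (CPM) with exact Poisson intervals, shares of cells with exact binomial intervals, and log2 ratios with the exact interval of the ratio of the UMI sums. All intervals are at the 95% level and cover counting error only, not the spread between embryos.

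Blood and the first blood vessels arise together from mesoderm that leaves the primitive streak and settles in the yolk sac, where cells expressing the VEGF receptor *Kdr* give rise to endothelium and to primitive erythroid cells. *Etv2*, an ETS transcription factor, acts at the top of this programme and is known to act transiently. *Tal1* (a bHLH factor) and *Lmo2* (a LIM-domain bridge protein) bind DNA in one complex with GATA factors, and *Fli1* is an ETS factor of endothelium and early blood. *Runx1* and *Ikzf1* are transcription factors of blood cells, *Cdh5* and *Pecam1* encode the adhesion molecules VE-cadherin and PECAM-1 of endothelial junctions, and *Cited4* encodes a co-activator that binds CBP and p300.

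In GRCm38, *Etv2* lies at chr7:30633616-30635852 on the minus strand, *Tal1* at chr4:115056426-115071755 (plus), *Lmo2* at chr2:103957986-103981878 (plus), *Fli1* at chr9:32422204-32542861 (minus) and *Runx1* at chr16:92601466-92826149 (minus). *Ikzf1* lies at chr11:11685003-11772926 (plus), *Cdh5* at chr8:104101625-104144511 (plus), *Pecam1* at chr11:106654217-106750628 (minus) and *Cited4* at chr4:120666572-120667820 (plus). An annotated gene on the opposite strand overlaps an exon of *Lmo2*, *Runx1*, *Ikzf1* and *Cdh5*. The other genes that overlap *Fli1* lie in its introns. Whether counting used strand is not given in the sources used here, and whether reads of such a pair were told apart was not checked.

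The 250 bases before the start of transcription are shown for the genes that led 3 patterns described below: *Etv2*, highest in the earliest haemato-endothelial cells and in the later endothelium, *Tal1* (first annotated start), present in every branch, and *Cited4*, highest in blood cells at EHF. Sequences are from RefSeq (GRCm38.p6) and run 5′ to 3′ along the gene. Capitals mark matches to short motifs searched on both strands: GGAAG of ETS factors, GATAA of GATA factors, TGTGG of RUNX factors and CAGCTG, an E-box.
Etv2 (chr7:30635853-30636102, minus strand): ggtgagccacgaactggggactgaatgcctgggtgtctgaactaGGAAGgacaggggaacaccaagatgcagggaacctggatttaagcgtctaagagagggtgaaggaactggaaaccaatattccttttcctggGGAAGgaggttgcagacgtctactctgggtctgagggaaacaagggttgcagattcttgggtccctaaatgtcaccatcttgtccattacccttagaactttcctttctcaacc
Tal1 (chr4:115056176-115056425, plus strand): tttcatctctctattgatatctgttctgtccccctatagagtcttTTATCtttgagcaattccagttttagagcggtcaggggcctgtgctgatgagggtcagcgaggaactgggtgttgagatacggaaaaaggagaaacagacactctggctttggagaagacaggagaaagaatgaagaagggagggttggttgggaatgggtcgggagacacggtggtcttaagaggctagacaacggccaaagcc
Cited4 (chr4:120666313-120666562, plus strand): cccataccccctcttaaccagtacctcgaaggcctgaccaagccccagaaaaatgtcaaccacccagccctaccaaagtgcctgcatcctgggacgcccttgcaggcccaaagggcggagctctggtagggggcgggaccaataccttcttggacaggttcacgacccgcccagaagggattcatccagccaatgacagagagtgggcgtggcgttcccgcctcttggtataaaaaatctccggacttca
The window before *Etv2* holds 2 matches to GGAAG, the one before *Tal1* holds 1 match to GATAA (read as TTATC on the printed strand), and the one before *Cited4* holds 0 matches to any of the 4 motifs. These letters are common. Of the 32851 windows of this kind in the table, 64.1% hold GGAAG, 22.6% GATAA, 49.3% TGTGG and 13% CAGCTG, so a match describes the sequence and does not mark a bound site. 5 of the 9 genes had an upstream sequence in the table.

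To find the haemato-endothelial cells without using the 9 genes, each library was clustered with these genes held out, and clusters were named from marker lists that also left them out. At MS-LS and OB-EB 1 cluster each was named haemato-endothelial, with 78 and 139 cells, or 2.15% (1.70 to 2.67%) and 3.48% (2.93 to 4.10%) of the library. Leading genes were also ranked with the 9 genes left out. They were *Gadd45g*, *Kdr* and *Fam212a* at MS-LS, and *Gadd45g*, *F2r* and *Phlda1* at OB-EB. At EHF 391 cells, or 11.2% (10.2 to 12.3%), fell into 4 clusters: 87 endothelium-like cells led by *Kdr*, *Flt1* and *Hhex*, 187 blood progenitor-like cells led by *Hbb-bh1*, *Gata1* and *Fgf3*, 40 erythroid-like cells led by *Hba-x*, *Hbb-bh1* and *Hba-a1*, and 77 shallow cells led by *Hbb-bh1*, *Fam212a* and *Car2* that were called blood cluster 22 and kept out of both branches. The median depth was 5902, 5348, 4560 and 1910 UMIs in these clusters. Globins were high in the erythroid-like cluster, with *Hbb-bh1* at 7367 CPM against 44.5 CPM in the endothelium-like cells.

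Most of the 9 genes were several-fold higher in these few cells than elsewhere at every stage. Over the genes with at least 10 UMIs, 5 of the 7 members tested at MS-LS, 7 of 9 at OB-EB and 9 of 9 at EHF were at least 4-fold higher in the haemato-endothelial clusters than in all other cells of the library (pseudocount 1 CPM), while 1.15%, 1.06% and 1.3% of all genes tested were. At the same stages 0 of the members were 4-fold lower, against 7.85%, 6.9% and 4.4% of all genes. The median log2 ratio of the members was 3.30, 3.90 and 4.88 at the 3 stages, and that of all genes was −0.21, −0.13 and −0.20. Those past the fold at MS-LS were *Etv2*, *Tal1*, *Lmo2*, *Fli1* and *Runx1*. *Ikzf1* and *Cdh5*, with 9 UMIs each in that library, were not tested. At OB-EB *Etv2* and *Pecam1* stayed under 4-fold, with log2 ratios of 1.48 and 1.17. The count depends on scarce genes: with a pseudocount of 10 CPM 4 members were past the fold at MS-LS, 4 at OB-EB and 6 at EHF. It was 8 at EHF without the cells of high mitochondrial share, and 8 without those of high doublet score. The share of all genes past the fold was not counted for these settings.

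In whole libraries, the members were mostly scarce before the headfold. *Tal1* rested on 37, 39 and 335 UMIs at MS-LS, OB-EB and EHF, which is 2.06, 3.20 and 16.4 CPM. *Cited4* rested on 32, 23 and 783 UMIs, or 1.78, 1.89 and 38.4 CPM. *Ikzf1* went from 9 to 25 and 152 UMIs, and *Pecam1* from 13 to 19 and 74. For EHF over MS-LS, 6 members were at least 2-fold higher after a pseudocount of 1 CPM was added, with the interval of the plain ratio on 1 side of 0 (*Tal1*, *Lmo2*, *Fli1*, *Ikzf1*, *Pecam1* and *Cited4*) and 0 were lower, where 8.42% of all genes were higher and 3.23% lower. The log2 ratio was 4.43 (3.92 to 4.99) for *Cited4*, 3.90 (2.93 to 5.05) for *Ikzf1* and 3.00 (2.50 to 3.53) for *Tal1*. For OB-EB over MS-LS, *Fli1* (1.76, 1.24 to 2.29) and *Ikzf1* (2.03, 0.89 to 3.32) were higher and 0 members were lower, against 3.14% and 1.89% of all genes. For EHF over OB-EB, *Tal1*, *Lmo2*, *Ikzf1* and *Cited4* were higher and 0 members were lower, against 9.93% and 4.39%. The pseudocount decided the calls of the junction genes: the plain log2 ratio of *Cdh5* was 1.60 (0.50 to 2.86) for EHF over MS-LS and 1.30 (0.01 to 2.67) for OB-EB over MS-LS. That of *Pecam1* was 1.22 (0.48 to 2.03) for EHF over OB-EB and 1.11 (0.01 to 2.25) for OB-EB over MS-LS. These would also be past 2-fold without it. *Etv2* went the other way without passing 2-fold, with 42.9, 34.5 and 31.8 CPM and a log2 ratio of −0.43 (−0.59 to −0.28) for EHF over MS-LS. The share of haemato-endothelial cells also differed between these libraries, and it moves with every whole-library level. Outside the haemato-endothelial clusters, 2 members were past this fold for EHF over MS-LS and 0 for OB-EB over MS-LS. The share of all genes was not counted in those cells, so these counts are not set against it.

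**Figure D1:**
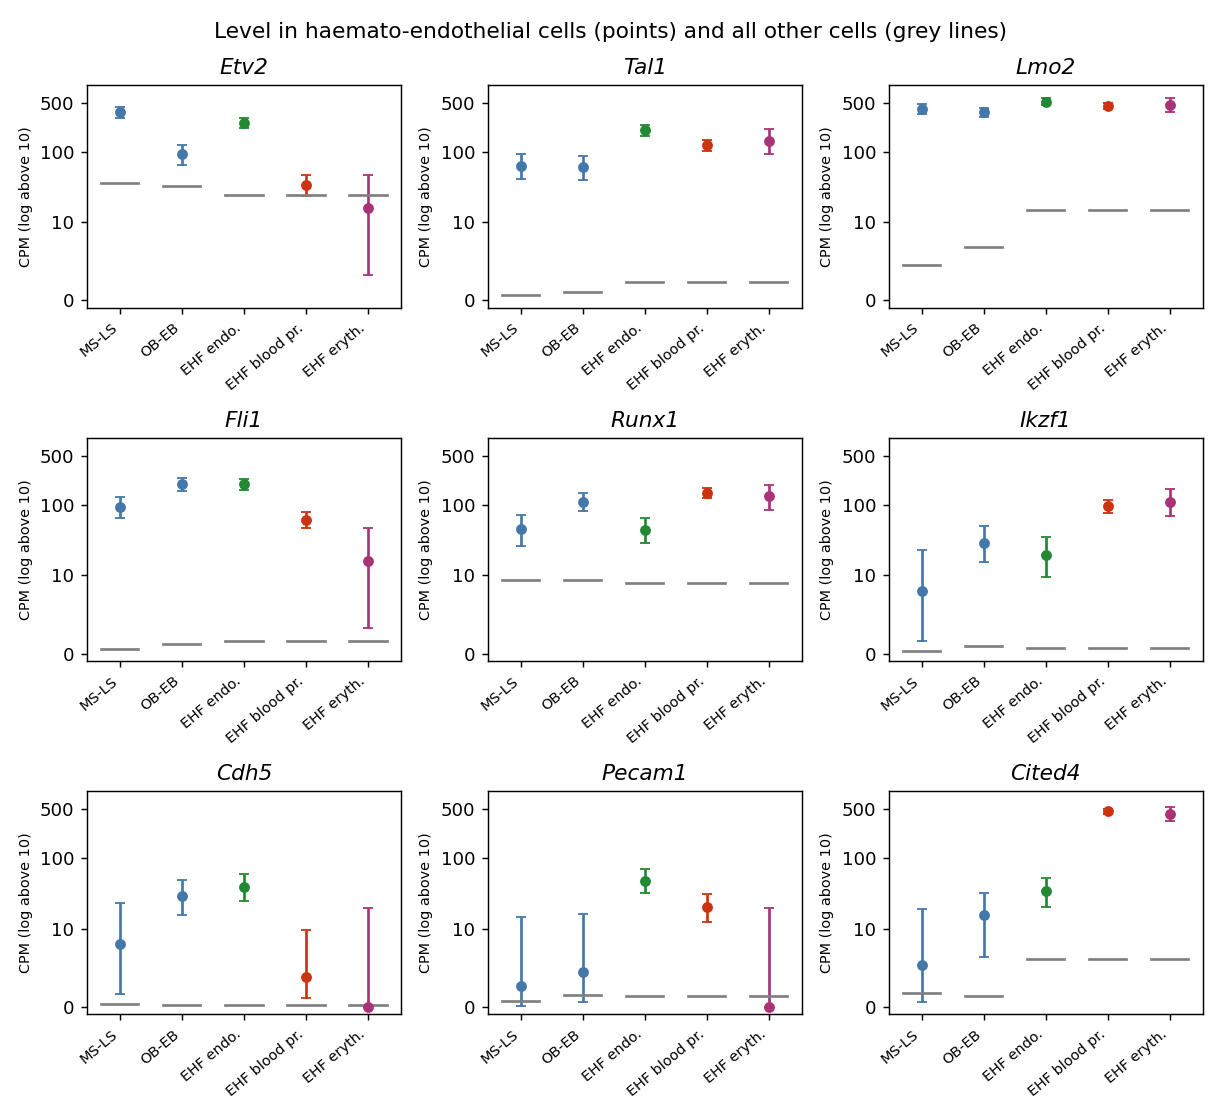
Level of each gene (CPM, linear up to 10 and logarithmic above) in the haemato-endothelial clusters of MS-LS and OB-EB and in the endothelium-like, blood progenitor-like and erythroid-like clusters of EHF; bars are exact 95% Poisson intervals and grey lines the level in all other cells of the library. *Etv2* is at 365 CPM at MS-LS and 92.1 CPM at OB-EB, and *Cited4* is under 16 CPM before EHF and over 430 CPM in the blood progenitor-like and erythroid-like cells.

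*Etv2* was highest in the haemato-endothelial cells of MS-LS. There it had 137 UMIs in 45 of 78 cells, up to 12 UMIs in a cell, which gives 365 CPM (306 to 432). At OB-EB it had 41 UMIs in 26 of 139 cells, up to 3 in a cell, which gives 92.1 CPM (66.1 to 125). The log2 ratio of OB-EB over MS-LS in these cells was −1.99 (−2.53 to −1.47), so the intervals of the stages do not overlap. The share of cells with an *Etv2* UMI was 57.7% at MS-LS and 18.7% at OB-EB, and 40% and 14.4% once each cell was thinned to 2000 UMIs, a fixed depth that left out 3 and 31 cells. At EHF *Etv2* was at 262 CPM (221 to 308) in the endothelium-like cells, where 63 of 87 had a UMI, and at 33.7 CPM (23.5 to 46.9) in the blood progenitor-like cells and 16 CPM (3.30 to 46.7) in the erythroid-like cells. All other cells had 24.2 CPM (22 to 26.6). Blood cluster 22, the shallow one, was above these at 99.9 CPM (58.2 to 160), on 17 UMIs in 11 of its 77 cells.

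Much of the *Etv2* signal lay outside these clusters. Of its UMIs, 17.8%, 9.76% and 31.2% came from haemato-endothelial cells at MS-LS, OB-EB and EHF. At MS-LS extra-embryonic mesoderm and mesenchyme-like cells followed with 189 CPM (165 to 217), 0.95 lower on the log2 scale (0.62 to 1.26), and 37.8% of these 251 cells had a UMI. Nascent mesoderm-like cells had 64.6 CPM (53.6 to 77.3). At OB-EB the first places could not be told apart: unnamed cluster 11 had 114 CPM (81.1 to 155), the haemato-endothelial cells 92.1 CPM and the extra-embryonic mesoderm and mesenchyme-like cells 88.9 CPM (70.6 to 110). Cluster 11 was led by *Phlda2*, *Sept10* and *Crabp1*. At EHF cardiomyocyte-like cells came after the endothelium-like cells, with 106 CPM (83.5 to 132), but 19.6% of them had a UMI, and a single cell held 19 of their 78 UMIs. Unnamed cluster 15, led by *Pitx1*, *Hoxb6* and *Spin2c*, had 83.0 CPM (63.2 to 107) with a UMI in 32.1% of its 109 cells.

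Away from mesoderm *Etv2* was not uniform. Visceral endoderm-like cells had an *Etv2* UMI in 0.926%, 0.692% and 2.10% of cells at the 3 stages. Extra-embryonic ectoderm-like cells had one in 13.8%, 4.92% and 16.1%, at median depths of 4837, 3034.5 and 7137 UMIs against 4687.5, 3299 and 6432 in the visceral endoderm. The 16.1% at EHF (13 to 19.8%) lies within the interval of the blood progenitor-like cells, 16.6% (11.6 to 22.7%) at a median of 5348 UMIs, and the 2.10% of the visceral endoderm-like cells (0.85 to 4.28%) lies below both. At 2000 UMIs a cell the shares were 5.00%, 6.25% and 0.928% in that order.

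Cells with a UMI of *Kdr*, the receptor that marks vessel-forming mesoderm, held more *Etv2* also when all cells outside the haemato-endothelial clusters were pooled. There *Etv2* was at 99.9 CPM in 213 *Kdr*-positive cells and 30.1 CPM in 3344 cells without *Kdr* at MS-LS, a log2 ratio of 1.73 (1.46 to 2.0). At OB-EB it was at 71.6 and 28.7 CPM, a ratio of 1.32 (0.92 to 1.70), and at EHF at 183 and 17.2 CPM in 96 and 3007 cells, a ratio of 3.42 (3.12 to 3.71). The pools mix cell types that differ in both genes, and within extra-embryonic mesoderm and mesenchyme-like cells, which held 93 of the 150 *Etv2* UMIs of the *Kdr*-positive pool at MS-LS, the interval of the ratio held 0 at that stage. There *Etv2* was at 196 CPM with *Kdr* and 184 CPM without, a ratio of 0.09 (−0.32 to 0.50). In these cells the ratio was 0.60 (−0.06 to 1.27) at OB-EB and 2.12 (0.87 to 3.34) at EHF, where 12 cells had *Kdr*. Inside the haemato-endothelial cluster of OB-EB, *Etv2* was at 133 CPM in 56 cells with *Kdr* and 55.3 CPM in 83 cells without it, a ratio of 1.27 (0.28 to 2.34), and at MS-LS at 378 and 338 CPM, a ratio of 0.16 (−0.38 to 0.72). Cells with a *Kdr* UMI were deeper, with a median of 6076 against 4157 UMIs outside the clusters at MS-LS.

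*Tal1* and *Lmo2*, the complex partners, were present in the haemato-endothelial cells from the first stage and in every branch at EHF. *Lmo2* was at 413 CPM (351 to 483) at MS-LS and 368 CPM (314 to 429) at OB-EB, with a UMI in 65.4% and 55.4% of the cells. At EHF it was at 522 CPM (464 to 585) in endothelium-like, 447 CPM (407 to 490) in blood progenitor-like, 469 CPM (376 to 578) in erythroid-like and 452 CPM (357 to 565) in blood cluster 22 cells. No neighbours in that order differ beyond their intervals. *Tal1* was at 64.0 CPM (41.0 to 95.1) and 60.7 CPM (40 to 88.3) at the earlier stages, and at 203 CPM (168 to 244) in endothelium-like, 124 CPM (104 to 148) in blood progenitor-like, 144 CPM (94.8 to 209) in erythroid-like and 129 CPM (81.0 to 196) in blood cluster 22 cells. In all haemato-endothelial cells together, *Tal1* had a log2 ratio of 1.22 (0.62 to 1.89) for EHF over MS-LS, while that of *Lmo2* was 0.19 (−0.06 to 0.45).

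Elsewhere *Tal1* was scarce, and *Lmo2* less so. In all other cells of EHF, *Tal1* had 2.33 CPM and a UMI in 1.16% of cells, beside 0.839% of the extra-embryonic ectoderm-like cells. It was not evenly spread over these other cells. The 96 with a *Kdr* UMI had *Tal1* at 21.8 CPM, in 11.5% of them. The 3007 without had it at 1.47 CPM, in 0.831% (log2 ratio 3.89, 2.91 to 4.82). Cells with *Kdr* were deeper, with a median of 6876.5 against 5647 UMIs. *Lmo2* was at 80.3 CPM (60.8 to 104) in presomitic mesoderm-like cells, 25.7% of which had a UMI, and at 71.2 CPM (52.9 to 93.9) in unnamed cluster 14, led by *Gal*, *Mixl1* and *T*. In extra-embryonic ectoderm-like cells of that library, which are deeper, *Lmo2* was at 1.73 CPM with a UMI in 1.26% of cells. At OB-EB primitive streak-like cells had *Lmo2* at 17.3 CPM (9.66 to 28.5), in 9.43% of them.

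*Fli1* was highest at OB-EB and in the endothelium-like cells of EHF. It was at 93.3 CPM (65.0 to 130) in the haemato-endothelial cells of MS-LS and 198 CPM (159 to 244) in those of OB-EB, a log2 ratio of 1.08 (0.50 to 1.69). At EHF it was at 198 CPM (163 to 238) in the endothelium-like cells, which are only part of the haemato-endothelial cells. It was at 61.7 CPM (47.5 to 78.8) in the blood progenitor-like and 16 CPM (3.30 to 46.7) in the erythroid-like cells. The share of cells with a UMI was 59.8%, 27.8% and 7.5% in that order. Blood cluster 22 had 76.4 CPM (40.7 to 131). In all haemato-endothelial cells of EHF together *Fli1* was at 97.6 CPM, lower than at OB-EB by a log2 ratio of −1.02 (−1.39 to −0.64). Other cells held little of it, 0.568, 1.28 and 1.57 CPM at the 3 stages, and 77.8%, 85.4% and 86.8% of its UMIs were in haemato-endothelial cells.

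*Runx1* and *Ikzf1*, the blood factors, were highest in the blood progenitor-like and erythroid-like cells. In the haemato-endothelial clusters *Runx1* was at 45.3 CPM (26.4 to 72.5) at MS-LS and 112 CPM (83.4 to 148) at OB-EB, a log2 ratio of 1.31 (0.49 to 2.20). At EHF it was at 148 CPM (126 to 174) in blood progenitor-like and 133 CPM (86.2 to 197) in erythroid-like cells, and at 44.5 CPM (28.8 to 65.7) in endothelium-like cells. *Ikzf1* had 3 UMIs at MS-LS and 13 at OB-EB in these clusters, or 7.99 and 29.2 CPM, and then 96.4 CPM (78.4 to 117) in blood progenitor-like, 112 CPM (69.2 to 171) in erythroid-like and 19.6 CPM (9.78 to 35.1) in endothelium-like cells. Blood cluster 22 did not share these levels, with *Runx1* at 23.5 CPM (6.40 to 60.2) on 4 UMIs and *Ikzf1* at 35.3 CPM (12.9 to 76.7) on 6. *Ikzf1* was nearly limited to these cells at EHF, with 90.8% of its UMIs there and 0 UMIs in 477 extra-embryonic ectoderm-like cells, which allows up to 0.864 CPM.

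*Runx1* had a clear level in another lineage. Visceral endoderm-like cells had 37.2 CPM (30.5 to 44.9), 52.9 CPM (40.2 to 68.4) and 54.1 CPM (44.9 to 64.6) at the 3 stages, with a UMI in 17.6%, 16.3% and 29.4% of cells. Extra-embryonic ectoderm-like cells had 1.96, 2.15 and 3.17 CPM. At MS-LS the haemato-endothelial cells were 0.28 above the visceral endoderm-like cells on the log2 scale (−0.55 to 1.03), so they could not be told apart. At OB-EB they were 1.09 above it (0.51 to 1.66). Of all *Runx1* UMIs, 9.34% lay in haemato-endothelial cells at MS-LS and 55.5% at EHF.

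*Cdh5* and *Pecam1*, the junction genes, had few UMIs before the headfold. *Cdh5* had 3 UMIs in the 78 haemato-endothelial cells of MS-LS, 13 UMIs in 7 of 139 cells at OB-EB (29.2 CPM, 15.6 to 49.9), and 22 UMIs in 16 of 87 endothelium-like cells at EHF (39.2 CPM, 24.6 to 59.3). It had 4 UMIs in the 187 blood progenitor-like cells. *Pecam1* had 1 and 2 UMIs at the earlier stages, where its level could not be set apart from that of other cells, and at EHF 48.1 CPM (31.7 to 70.0) in endothelium-like and 20.2 CPM (12.5 to 30.9) in blood progenitor-like cells, with a UMI in 26.4% and 10.7% of cells. In the 40 erythroid-like cells *Cdh5* and *Pecam1* had 0 UMIs, which allows up to 16 CPM, and in blood cluster 22 each had 1. *Pecam1* was present in 0.419% of the extra-embryonic ectoderm-like cells of that library.

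*Cited4* was nearly silent until EHF. It had 2 UMIs in the haemato-endothelial cells of MS-LS and 7 in those of OB-EB, or 5.33 CPM (0.65 to 19.2) and 15.7 CPM (6.32 to 32.4). At EHF it was at 467 CPM (427 to 511) in blood progenitor-like cells, 431 CPM (343 to 536) in erythroid-like cells and 499 CPM (399 to 618) in blood cluster 22. The endothelium-like cells had 33.8 CPM (20.4 to 52.9). A UMI was present in 88.2% of blood progenitor-like and 13.8% of endothelium-like cells, and in 3.77% of extra-embryonic ectoderm-like cells. Visceral endoderm-like cells were next among the others, with 7.17, 8.21 and 19.7 CPM at the 3 stages. In all haemato-endothelial cells the log2 ratio of EHF over OB-EB was 4.44 (3.39 to 5.76) for *Cited4*.

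**Figure D2:**
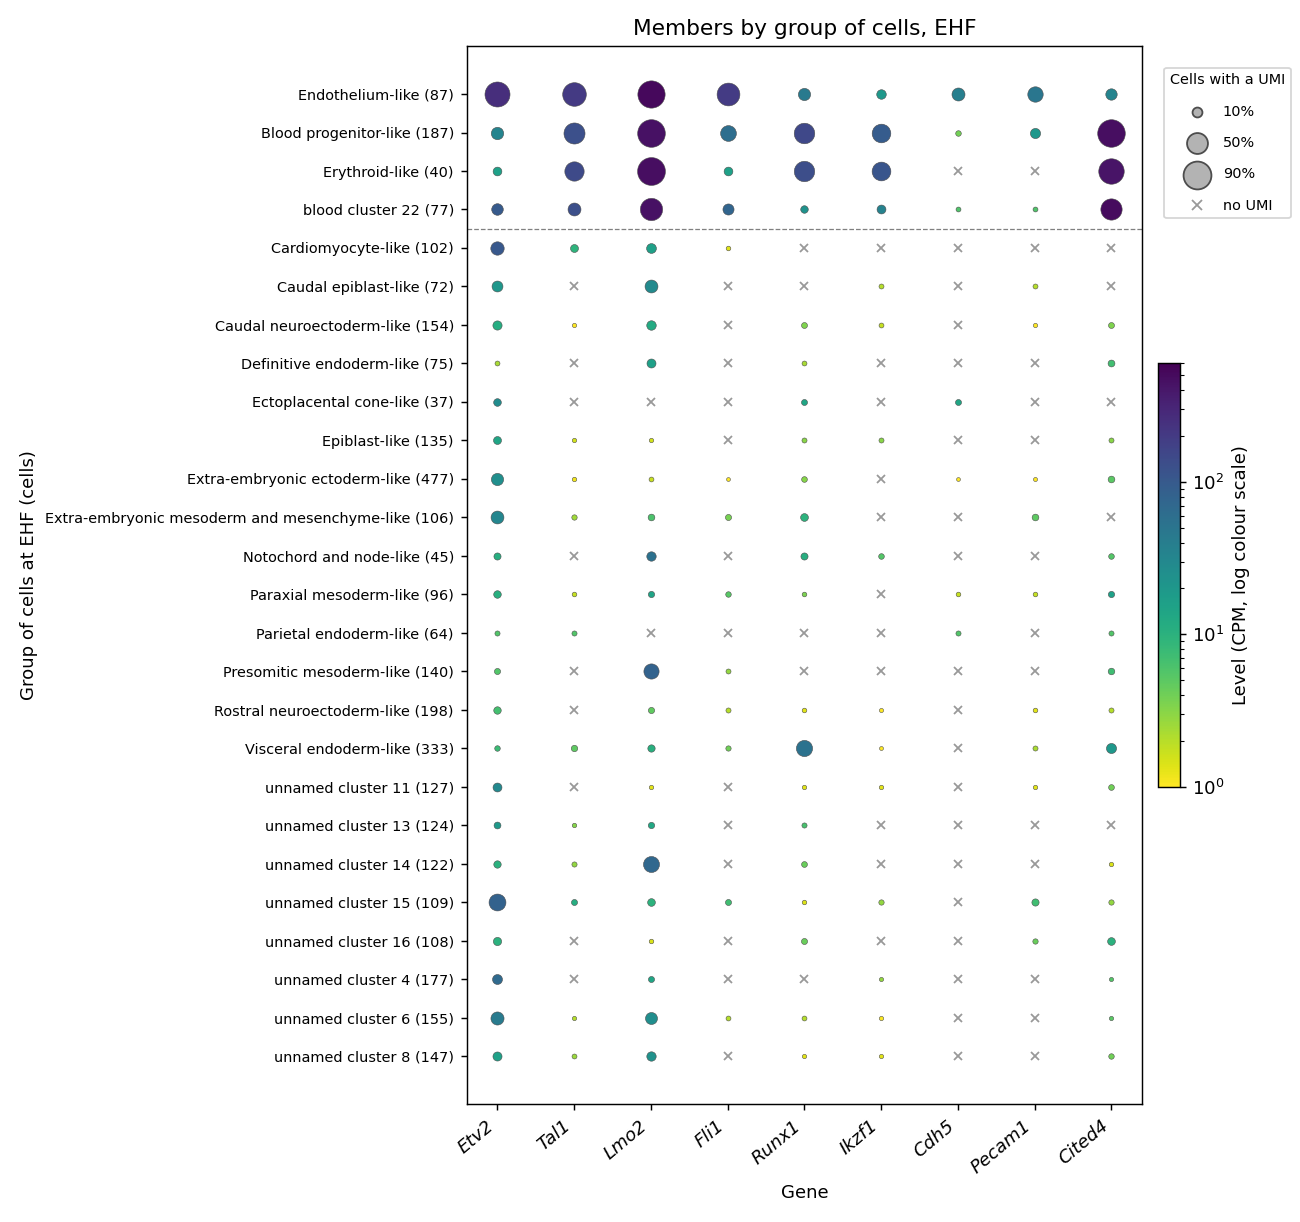
The 9 genes in every group of cells at EHF: colour gives the level (CPM, log colour scale), the area of a dot the share of cells with a UMI, and a cross no UMI; numbers of cells are in brackets and the dashed line parts the haemato-endothelial clusters from the others. Below the line the larger dots are those of *Etv2* in several groups, *Lmo2* in presomitic mesoderm-like cells and unnamed cluster 14, and *Runx1* in visceral endoderm-like cells.

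At EHF the members fell into 3 sets when the 87 endothelium-like cells were compared with the 227 blood-like cells (blood progenitor-like and erythroid-like together). 4 were at least 2-fold higher in the endothelium-like cells with the interval on 1 side of 0, against 8.45% of all genes tested, and 3 were lower, against 4.37%. *Cdh5* led the first set with a log2 ratio of 3.59 (2.03 to 5.58), on 22 and 4 UMIs. *Etv2* followed with 3.08 (2.55 to 3.63), then *Fli1* with 1.85 (1.40 to 2.31) and *Pecam1* with 1.49 (0.61 to 2.38). *Cited4* was lower by the widest margin, −3.77 (−4.51 to −3.11), then *Ikzf1* with −2.33 (−3.37 to −1.44) and *Runx1* with −1.71 (−2.38 to −1.11). *Tal1* at 0.67 (0.31 to 1.03) and *Lmo2* at 0.21 (0.00 to 0.42) stayed under 2-fold. Between erythroid-like and blood progenitor-like cells 1 member was past this fold: *Fli1* was lower in the erythroid-like cells, at −1.95 (−4.26 to −0.34) on 3 and 64 UMIs, where 1.65% of all genes were lower. *Runx1* (−0.16, −0.83 to 0.46), *Ikzf1* (0.21, −0.54 to 0.90), *Tal1* (0.21, −0.45 to 0.82) and *Cited4* (−0.12, −0.47 to 0.23) were not past the fold there.

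**Figure D3:**
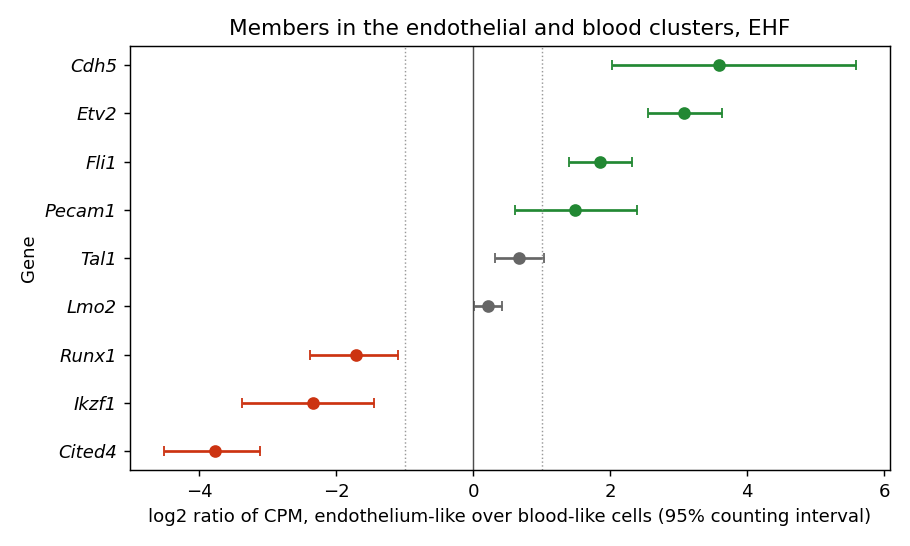
Log2 ratio of CPM, endothelium-like over blood-like cells at EHF, with the exact 95% interval of the ratio; dotted lines mark 2-fold. *Cdh5*, *Etv2*, *Fli1* and *Pecam1* lie right of 0, *Runx1*, *Ikzf1* and *Cited4* left of it, and *Tal1* and *Lmo2* within 2-fold.

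*Gata1*, the erythroid GATA factor, splits the same cells without the cluster borders. 0 of 78 haemato-endothelial cells had a *Gata1* UMI at MS-LS, 15 of 139 at OB-EB and 184 of 391 at EHF. At EHF the cells with *Gata1* had *Cited4* at 466 CPM against 213 CPM in the others (log2 ratio 1.13, 0.89 to 1.37), *Ikzf1* at 107 against 32.4 CPM (1.72, 1.14 to 2.35) and *Runx1* at 144 against 66.9 CPM (1.11, 0.67 to 1.55). *Etv2* went the other way, at 38.0 against 171 CPM (−2.17, −2.72 to −1.66). So did *Fli1*, at 71.0 against 125 CPM (−0.82, −1.26 to −0.39), and *Cdh5*, on 6 and 21 UMIs (−1.87, −3.47 to −0.51). The intervals of *Tal1*, *Lmo2* and *Pecam1* held 0. At OB-EB, with 15 cells, the intervals of all 9 ratios held 0. *Gata1* was among the genes clustered, so this split is not independent of the cluster names.

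Co-detection followed these sets for some of the genes. Cells with UMIs of 2 or more of the 9 genes made up 67.9% (53 of 78, 56.4 to 78.1%), 54.7% (76 of 139, 46.0 to 63.1%) and 85.2% (333 of 391, 81.2 to 88.5%) of the haemato-endothelial cells at MS-LS, OB-EB and EHF, and 1.32%, 1.01% and 3.16% of all other cells. At 2000 UMIs a cell these shares were 35.5%, 41.5% and 64.6%, against 0.306%, 0.395% and 0.593%. UMIs of 4 or more members were in 12.8%, 10.1% and 44.0% of the haemato-endothelial cells at full depth, and the richest cell had 5, 5 and 8 of the 9. At full depth OB-EB is the lowest of the stages, at 2000 UMIs MS-LS is, and at 1500 UMIs OB-EB is again, with 26.0% beside 27.4% at MS-LS, so no order of these stages is read from the shares.

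**Figure D4:**
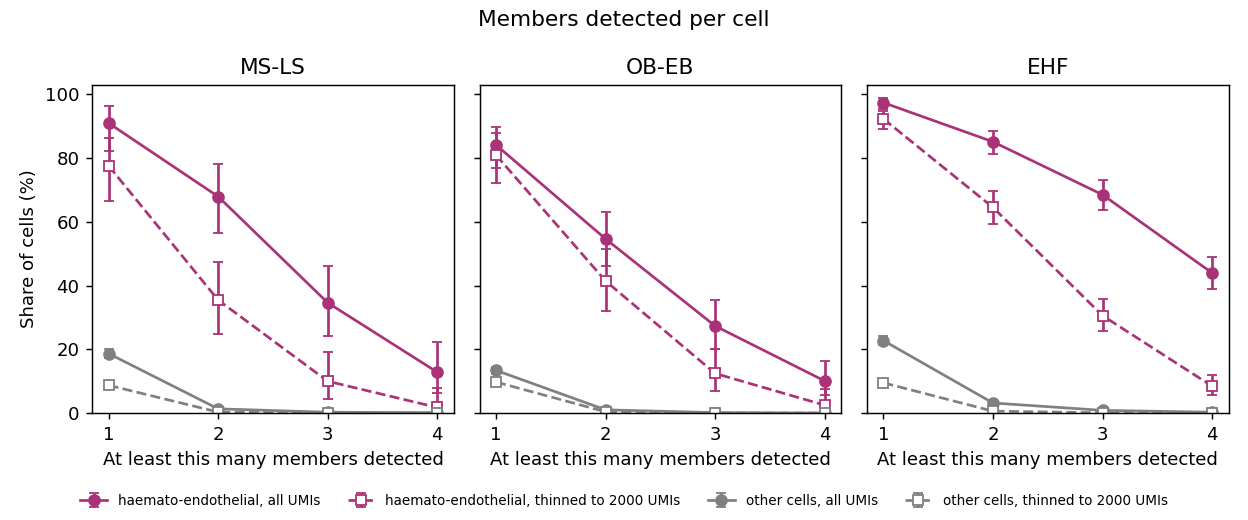
Share of cells (%) with UMIs of at least 1, 2, 3 or 4 of the 9 genes in haemato-endothelial and other cells of each stage, for all UMIs (filled) and after thinning each cell to 2000 UMIs (open); bars are exact 95% binomial intervals. For at least 2 genes the haemato-endothelial cells sit at 67.9%, 54.7% and 85.2%, and the other cells at or under 3.16%.

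*Etv2*, *Tal1* and *Lmo2* were found together in 13 cells at MS-LS, 7 at OB-EB and 69 at EHF, of which 9, 5 and 62 were haemato-endothelial. At EHF 39 of these were endothelium-like and 21 blood progenitor-like. *Runx1*, *Ikzf1* and *Cited4* were together in 50 cells of EHF, 41 of them blood progenitor-like and 1 endothelium-like, and in 0 cells of the earlier stages. In the haemato-endothelial cells of EHF, *Cited4* was present in 38.9% (29.7 to 48.7%) of 108 cells with *Etv2* and in 72.4% (66.8 to 77.6%) of those without, and after thinning in 21.0% and 49.7%. *Ikzf1* was present in 44.1% (35.3 to 53.2%) of 127 cells with *Runx1* and in 18.2% (13.7 to 23.4%) of those without, and after thinning in 21.2% and 11.5%. Depth moves with these shares: the median was 5511 UMIs in the cells with *Etv2* and 4644 in those without, and 5473 and 4481.5 for *Runx1*.

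Pairs were also read within single clusters. Among endothelium-like cells *Fli1* was present in 52.4% (39.4 to 65.1%) of 63 cells with *Etv2* and 79.2% (57.8 to 92.9%) of 24 cells without, and after thinning in 26.4% and 33.9%. Among blood progenitor-like cells *Ikzf1* was present in 48.9% (38.2 to 59.7%) of 90 cells with *Runx1* and 30.9% (21.9 to 41.1%) of those without, and after thinning in 22.3% and 16.9%. *Etv2* and *Cited4* met in that cluster: 30 of its 31 cells with *Etv2* had *Cited4* too, next to 88.2% of all its cells. At MS-LS *Fli1* was present in 41.2% (27.6 to 55.8%) of 51 haemato-endothelial cells with *Lmo2* and 14.8% (4.19 to 33.7%) of those without, and after thinning in 23.1% and 10.4%.

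**Figure D5:**
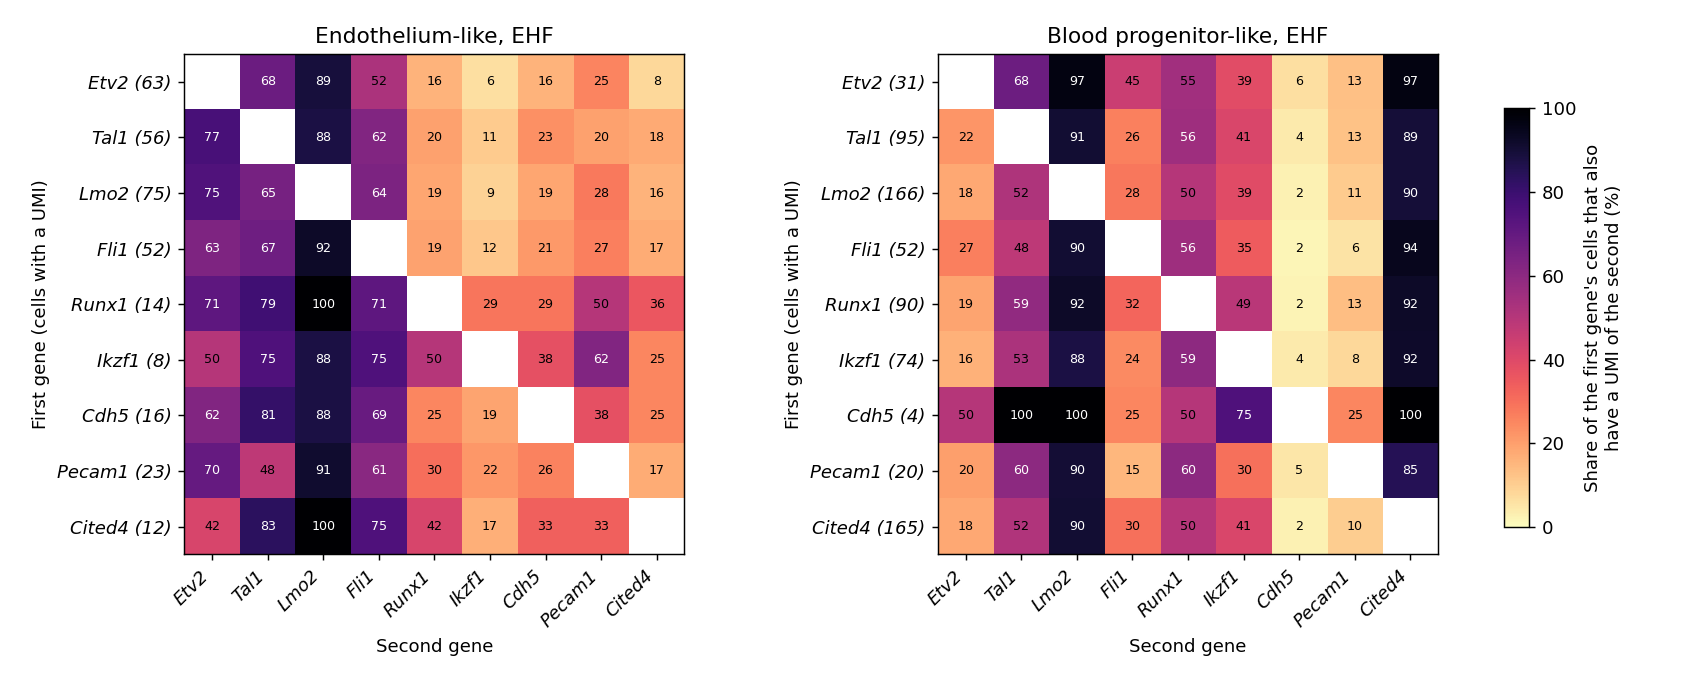
Share (%) of the cells with a UMI of the row's gene that also had a UMI of the column's gene, in endothelium-like (left) and blood progenitor-like (right) cells of EHF; the number of cells with the row's gene is in brackets. The *Cited4* column is at 85% or more on the right and at 36% or less on the left, and the *Lmo2* column is high in both.

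Genes with the most similar pattern were ranked by Pearson's r of log2(CPM + 10) over the 56 groups of cells of all stages, among 9688 genes. These groups share libraries and depth and are not independent, so r is only a description. Of the genes below, *Kdr*, *Nrip3*, *Egfl7*, *Gata2*, *Gadd45g*, *Hapln1*, *Gata1* and *Hbb-bh1* were also markers used to name the groups. Their places in the ranking are therefore not independent of the names. For *Tal1* the nearest were *Fli1* (0.90), *Lmo2* (0.88) and *Nrip3* (0.88), and for *Lmo2* they were *Tal1*, *Fli1* (0.84) and *Prkar2b* (0.84). *Fli1* was nearest to *Tal1*, *Egfl7* (0.86) and *Lmo2*. *Etv2* stood near *Ptpn18* (0.80), *Kdr* (0.80) and *Rwdd1* (0.66), and its r with the other members was 0.04 for *Cited4* to 0.56 for *Fli1*. *Cited4* was nearest to *Hbb-bh1* (0.92) and *Gata1* (0.89), *Ikzf1* to *Nrip3* (0.94), *Cited4* (0.88) and *Gata1* (0.87), and *Runx1* to *Rnd2* (0.81), *Nrip3* (0.79) and *Abcb10* (0.78). *Cdh5* came with *Fli1* (0.80), *Gata2* (0.72) and *Gadd45g* (0.71), and *Pecam1* with *Hapln1* (0.71), *Fli1* (0.69) and *Hdac7* (0.67), on 55 and 106 UMIs in all.

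Other genes of the same programmes were counted from lists of endothelial genes, blood regulators, globin and haem genes, ETS factors, and CITED and partner genes. Most endothelial genes and all globin and haem genes listed also served to name the clusters. So did many blood regulators: *Gata1*, *Gata2*, *Gfi1b*, *Itga2b*, *Nfe2*, *Klf1*, *Cbfa2t3*, *Lyl1*, *Myb* and *Hhex*. The counts of these 3 lists therefore describe the clusters. Endothelial genes were at least 4-fold higher in the haemato-endothelial clusters for 11 of 13 at MS-LS, 9 of 13 at OB-EB and 10 of 16 at EHF, led at each stage by *Tek*, the angiopoietin receptor, and 1, 1 and 0 counted as lower (*Plvap* at MS-LS, with 0 UMIs in these cells, and *Sox17* at OB-EB). Blood regulators were higher for 3 of 12, 5 of 12 and 13 of 18, led by *Gata2* at the earlier stages and by *Gfi1b* and *Klf1* at EHF, and 0 were lower. Globin and haem genes were higher for 0 of 3 at MS-LS and 7 of 7 at EHF. Of the other ETS factors 2 of 8, 1 of 8 and 2 of 9 were higher: *Ets1* at each stage, *Elk3* at MS-LS and *Spi1* at EHF. *Elf1*, with 0 UMIs in the haemato-endothelial cells, counted as lower at MS-LS, and *Etv4* and *Etv5* were lower at EHF. *Cited2* and the other CITED and partner genes were higher for 0 of 6 at every stage, where *Cited4* was higher at OB-EB and EHF. *Cited2* was raised but under 4-fold, with log2 ratios of 1.34, 1.82 and 1.46 at the 3 stages. In the haemato-endothelial cells of EHF it was at 709 CPM, beside 342 CPM for *Cited4*. *Cited1* and *Tfap2c* were lower at EHF with log2 ratios of −3.36 and −3.52. *Tfap2a* counted as lower at OB-EB. For *Plvap*, *Elf1* and *Tfap2a*, each with 0 UMIs in the haemato-endothelial cells, the interval of the ratio reached above 0, so a difference was not detectable at this depth.

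In the comparison of endothelium-like with blood-like cells, 16 of 16 endothelial genes were higher, and 7 of 7 globin and haem genes were lower. Of 17 blood regulators 8 were lower, with *Gata1* at −3.78 (−4.92 to −2.83), and *Hhex* at 1.36 (0.94 to 1.78) and *Lyl1* at 1.22 (0.11 to 2.34) were higher. Most of these endothelial genes and all these globin and haem genes were markers used to divide the branches. So were *Lyl1* and the lower blood regulators other than *Ldb1* and *Ikzf2*. Beside *Etv2* and *Fli1*, *Ets2* (1.53, 0.96 to 2.10) and *Elk3* (5.37, 2.72 to 10.8, on 19 and 1 UMIs) were the ETS factors past the fold, among 6 tested. None of the 4 other CITED and partner genes tested was past it in either direction, at a median log2 ratio of −0.12. *Cited2* came closest, lower in the endothelium-like cells at −0.95 (−1.15 to −0.74).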

How the data were processed

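The authors prepared Chromium 3′ v2 libraries from pooled, dissociated embryos, sequenced them on a HiSeq4000 and counted UMIs with Cell Ranger 3.0.2 against GRCm38 with vector sequences added. They deposited whole-number counts per gene and cell without normalization, after, per the study's methods, a filter on genes and UMIs per cell and on the mitochondrial share. The submitters' processing notes also name R 3.6.1 and Seurat 3. 2 tables of the EHF stage did not differ in any of 65128160 counts, apart from the names of 21 genes, and were treated as 1 library. Samples were grouped by their labels. No stage had a replicate library, so no test was used.

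Seurat 5.3.0 (R 4.3.3) clustered each library at a resolution of 4.5. Following the study's methods, counts were log-normalised to a scale of 10000, and 50 components of 2000 variable genes were kept. Neither the 9 genes nor the vector features could be variable genes, and none of the 9 was a naming marker or could be listed as leading a cluster. The name of a cluster was that of the highest of 25 cell type scores, each the mean log2 ratio of the type's markers over the other cells (pseudocount 10 CPM). Clusters with under 3 detected markers, a margin under 0.2 over the next type or more markers of another type among the leading genes stayed unnamed (4, 8 and 8 clusters with 639, 1197 and 1069 cells). Endothelium, blood progenitor, erythroid and haemato-endothelial progenitor were taken as 1 set of 4 types in naming, and divided at EHF by the best of the first 3. This rule and the margin were set after the data were seen. The members and all gene lists were chosen with earlier results of these data known.

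A gene was tested against a fold with at least 10 UMIs over both groups. The ratio to all other cells was log2 with a pseudocount of 1 CPM and a limit of 4-fold. Branches and libraries were compared at 2-fold on that scale, with the interval of the plain ratio on 1 side of 0. A count of 0 was given a limit of 3 UMIs. Thinned shares are means over 100 random draws. Doublets were kept: Scrublet in scanpy 1.11.5 called 6, 0 and 13 cells, under 0.5% of each library, and an alternative left out the top 5% by score (182, 200 and 175 cells, 5, 7 and 18 of them haemato-endothelial). The genes named are the 9 members, the genes at the ends of the lists, and the 3 genes most like each member among those with at least 200 UMIs or among the members, with 1 gene under this rule not reported here. Genes named as leading a cluster or past a fold within a list, and *Kdr* and *Gata1* as genes to split cells by, were chosen after their values were seen. Alternatives changed the resolution, clustering tool, held-out genes, cell filters, naming margin, pseudocount, fold, depth and scale. Python 3.11.15 served for the remaining steps, with pandas 2.3.3 for tables and numpy 2.4.6 and scipy 1.17.1 for intervals. The alternative clusters used leidenalg 0.10.2 and the plots matplotlib 3.10.9. Only the ratios, levels and shares with their intervals were tried on simulated counts, drawn from the models that the intervals assume. Gene positions are from GENCODE for GRCm38, and upstream sequences from RefSeq (GRCm38.p6).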

Additional observations from a re-analysis of the deposited data

How the results depend on the processing

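No paired analysis was possible because each stage is 1 library and the stages share no replicate. Among values and counts of the main comparisons under the alternatives, 139 stayed within a set tolerance of the main value and 16 moved. These are counts, shares and summed levels, for which a reversal was not defined. The tolerance was wide for counts: a fall from 9 to 6 members 4-fold higher at EHF lay within it. Shares and summed levels had to stay within the main interval. Among values of single members 589 stayed within their tolerance and 32 moved. A log2 ratio could shift somewhat and still count as kept. The split between the branches at EHF stayed at 4 members higher and 3 lower under every alternative run. The share of haemato-endothelial cells with 2 or more members depended on depth: after thinning to 2000 UMIs it was 35.5%, 41.5% and 64.6% at MS-LS, OB-EB and EHF, and after thinning to 1500 UMIs 27.4%, 26.0% and 50.02%. With only cells of at least 2000 UMIs it was 64.3% at OB-EB and 92.4% at EHF. With the members allowed among the variable genes it was 78.6% at MS-LS, and without the shallow blood cluster 22, left out after the data were seen, it was 93.0% at EHF. With a pseudocount of 10 CPM, 4 members were 4-fold higher in the haemato-endothelial cluster of OB-EB, and in whole libraries 3 were higher for EHF over MS-LS and 0 for OB-EB over MS-LS. A larger pseudocount lowers the ratios of scarce genes by construction. Without the extra-embryonic ectoderm, ectoplacental cone and visceral and parietal endoderm cells, 1 member was higher for OB-EB over MS-LS. On cells outside the haemato-endothelial clusters, an alternative added after the data were seen, 2 were higher for EHF over MS-LS and 0 for OB-EB over MS-LS. The share of all genes past the fold was not counted under the alternatives, so these counts of members are not set against it. The number of haemato-endothelial cells was 70 to 78, 115 to 149 and 314 to 394 over the alternatives. A repeat with the cells that the study assigned to blood and endothelium at the earlier stages was not run, because its barcode lists were held only in part. Depth limits *Cdh5*, *Pecam1*, *Ikzf1* and *Cited4* before EHF, where a level rests on a few UMIs.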

Other observations

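Outside the haemato-endothelial clusters, cells with UMIs of 3 or more of the 9 genes were rare, with 9 of 3557 cells at MS-LS, 5 of 3855 at OB-EB and 26 of 3103 at EHF. At MS-LS 5 of the 9, and at OB-EB 3 of the 5, were extra-embryonic mesoderm and mesenchyme-like. At EHF 8 were visceral endoderm-like and 5 cardiomyocyte-like. Of these cells 2, 1 and 10 were among the 5% with the highest doublet scores, and the part of doublets in them was not tested. Among the cardiomyocyte-like cells of EHF, which had *Etv2* at 106 CPM, *Tal1* had 7 UMIs and *Lmo2* 12, and *Runx1*, *Ikzf1*, *Cdh5*, *Pecam1* and *Cited4* had 0.

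At MS-LS all 6 *Cdh5* UMIs outside the haemato-endothelial cluster lay in 1 extra-embryonic ectoderm-like cell, and the other 536 cells of that group had 0.

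The tdTomato reporter had a UMI in 3 of 78, 8 of 139 and 13 of 391 haemato-endothelial cells, or 3.85% (0.80 to 10.8%), 5.76% (2.52 to 11.0%) and 3.32% (1.78 to 5.62%), against 0.559%, 0% and 1.05% of extra-embryonic ectoderm-like cells, with median depths of 4304.5, 2756 and 4941 UMIs in the haemato-endothelial against 4837, 3034.5 and 7137 in the extra-embryonic ectoderm-like cells. The paper reports that few tdTomato reads were recovered at MS-LS and OB-EB, and that labelled cells could not be identified there. The time from dose to dissection also differed between stages, so the shares are not compared as rates of labelling. At EHF 6 of the cells with a reporter UMI were endothelium-like and 7 blood progenitor-like. Among the 9 genes at EHF, *Fli1* was at 188 CPM in the 13 cells with a reporter UMI and 93.2 CPM in the others, a log2 ratio of 1.02 (0.20 to 1.74), and the intervals of the other 8 ratios held 0. The 13 cells were deeper, with a median of 7437 against 4911 UMIs. *Fli1* was also at 198 CPM in endothelium-like and 61.7 CPM in blood progenitor-like cells. The mix of clusters was not held fixed, so the ratio is not read as a trait of labelled cells.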
